A study of Rattus norvegicus with 8 samples.

Results

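Nuclear receptors are transcription factors, many of which are switched by a small lipid-soluble ligand such as a bile acid, an oxysterol, a steroid or a thyroid hormone. They bind DNA through a pair of zinc fingers, often as a partner of a retinoid X receptor, and exchange corepressors for coactivators when the ligand is bound. In liver they are known for setting bile acid, lipid, glucose and drug metabolism. A list of 36 rat receptors was followed here on liver arrays, and a receptor counted as measured when the accession printed for an array probe belonged to its gene. Of the 36, 32 had a matched probe, among 15168 gene symbols matched on the whole array; Rarb, Hnf4g, Rora and Nr6a1 had none and were not analysed here.

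The series holds 8 single-colour arrays of liver total RNA from male rats aged 22 weeks. After 14 weeks, 5 samples came from rats on a high-fat diet, whose disease state the labels give as NAFLD (non-alcoholic fatty liver disease), and 3 came from controls on standard chow. The labels give no strain and no genotype, and leave it unstated whether the samples came from different rats, so each p-value reflects only how far these samples spread, which may be technical. By its title the study screened for genes of glucose and lipid metabolism, and the comparison here asks which receptors the liver arrays detected and which differed between the diets.

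Signals are given as log2 values after subtracting the 75th percentile of the array, so a probe at 0 is as bright as that percentile. Probes differ in how brightly they bind, so levels were compared between arrays for 1 probe and never between receptors. By the scan times in the file headers the arrays came from 3 scans. Scan 1 held high-fat arrays 2, 3 and 5, scan 2 held all 3 chow arrays, and scan 3, on a later day, held high-fat arrays 1 and 4; diet and scan therefore cannot be told apart. The high-fat arrays were brighter, with a 75th percentile of 725 to 1045 intensity units against 278 to 559 on chow and 79.1% to 92.8% against 66.9% to 71.8% of probes above background (p = 0.0179 for either measure in an exact two-sided permutation test on the difference of means, the lowest value that 56 splits permit, and 0.0179 adjusted over the 2 measures). Of 8 hepatocyte markers (among them albumin, transthyretin and Cps1), 8 were above background on all 8 arrays.

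Promoters of 4 receptors are shown because their genes carry the patterns described below: the liver X receptor pair Nr1h2 and Nr1h3 had lower means on high-fat diet, and Nr4a1 and Nr4a2 varied among the high-fat arrays. The sequences run from 250 bases before to 50 bases after the gene's start in RefSeq (build GRCr8) and read 5′ to 3′ on the gene's own strand. Capitals mark a core receptor motif (AGGTCA or TGACCT), a cyclic AMP response core (TGACG or CGTCA) or an ETS factor core (CCGGAA or TTCCGG), the last chosen after reading the Nr1h2 sequence.
Nr1h2 (chr1:104183814-104184113, minus strand): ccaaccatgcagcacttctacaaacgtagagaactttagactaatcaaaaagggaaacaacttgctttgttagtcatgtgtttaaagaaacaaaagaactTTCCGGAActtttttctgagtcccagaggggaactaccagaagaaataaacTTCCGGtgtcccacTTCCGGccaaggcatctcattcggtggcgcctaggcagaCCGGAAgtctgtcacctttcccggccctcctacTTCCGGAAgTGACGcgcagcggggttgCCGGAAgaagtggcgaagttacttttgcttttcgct
Nr1h3 (chr3:97623180-97623479, minus strand): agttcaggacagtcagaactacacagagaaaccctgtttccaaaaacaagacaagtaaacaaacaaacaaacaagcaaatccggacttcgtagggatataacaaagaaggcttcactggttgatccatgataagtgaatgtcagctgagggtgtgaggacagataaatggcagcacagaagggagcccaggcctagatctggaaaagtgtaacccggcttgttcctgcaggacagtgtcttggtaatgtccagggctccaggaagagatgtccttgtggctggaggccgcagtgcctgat
Nr4a1 (chr7:134259888-134260187, plus strand): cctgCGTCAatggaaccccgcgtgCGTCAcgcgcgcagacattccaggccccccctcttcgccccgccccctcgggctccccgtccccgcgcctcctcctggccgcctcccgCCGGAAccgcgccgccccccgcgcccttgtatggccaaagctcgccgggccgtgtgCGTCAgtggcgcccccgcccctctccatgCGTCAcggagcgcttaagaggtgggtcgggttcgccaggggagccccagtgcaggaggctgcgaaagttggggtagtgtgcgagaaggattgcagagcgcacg
Nr4a2 (chr3:62104838-62105137, minus strand): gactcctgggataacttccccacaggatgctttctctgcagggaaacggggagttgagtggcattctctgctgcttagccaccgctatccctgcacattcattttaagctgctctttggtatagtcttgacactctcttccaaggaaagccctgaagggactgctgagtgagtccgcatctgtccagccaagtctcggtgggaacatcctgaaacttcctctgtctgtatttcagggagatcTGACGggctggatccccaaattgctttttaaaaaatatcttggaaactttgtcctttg
None of these 4 windows held the receptor motif. Nr4a1 held 4 matches to the cyclic AMP response core, and Nr4a2 and Nr1h2 held 1 each. Nr1h2 held 8 matches to the ETS core, counting a match on each strand where these overlap, against 1 in Nr4a1, 0 in Nr1h3 and 0 in Nr4a2. Among 33469 promoters of the same length, 16.2% held the receptor motif, 21.2% the cyclic AMP response core and 15.0% the ETS core. For the 27 measured receptors in that table, with 35 promoters, the shares were 11.4%, 22.9% and 8.57%. A match describes the letters of the window and is not evidence of binding.

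The probes detected most of the receptors in both diets. Of the 32, 27 were well above background on all 8 arrays. They included the retinoid X receptors Rxra, Rxrb and Rxrg, the bile acid receptor Nr1h4, the drug sensors Nr1i2 and Nr1i3, the glucocorticoid receptor Nr3c1 and the hepatocyte factors Hnf4a and Nr5a2. The other 5 were dim. Thrb, a thyroid hormone receptor, was above background on 4 of 5 high-fat and 2 of 3 chow arrays. Nr1d2, a receptor of the circadian clock also called REV-ERB beta, was above background on 5 and 2, and Esrrb, an estrogen-related receptor, on 5 and 1. Esrrg, of the same family, was detected in 5 of 5 samples on high-fat diet and in 0 of 3 on chow, and Nr4a3 in 4 and 0. Counted by array, high-fat arrays 1 to 5 detected 31, 32, 32, 31 and 32 receptors, while the chow arrays detected 29, 29 and 28. Detection was thus lower on the dimmer chow arrays, and the part of array brightness in it was not tested.

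No receptor passed the test between diets. Of 32 tested receptors, 0 passed an adjusted p of 0.05 in either direction (limma, adjusted over all features), while 3.56% of all 22871 features passed (3.07% higher and 0.49% lower on high-fat diet). At an unadjusted p of 0.05, 4 of 32 (12.5%) passed, against 20.2% of all features. Among the 4 was Esrrg, which met the filter through the high-fat arrays alone. The diets did not overlap in 4 of 32 receptors (12.5%), against 17.1% of all features: Nr3c1 was higher (7.94% of all features were), and Nr1h2, Nr1h3 and Thra were lower (9.17%). The signs were even, 16 positive and 16 negative, with a median difference (high-fat diet minus chow) of −0.01 over the receptors and −0.01 over all features. The differences ran from −0.46 for Nr1h2 to 1.11 for Nr3c1, and 18 of 32 lay within 0.25 of 0. The 95% intervals, which are not adjusted for the number of features, had a median half-width of 0.56, so changes of that size could be missed. After adjustment larger ones could be missed too: Nr3c1, at 1.11, had a limma adjusted p of 0.152. In whole liver, fewer cells of a type and less RNA per cell cannot be told apart.

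**Figure D1:**
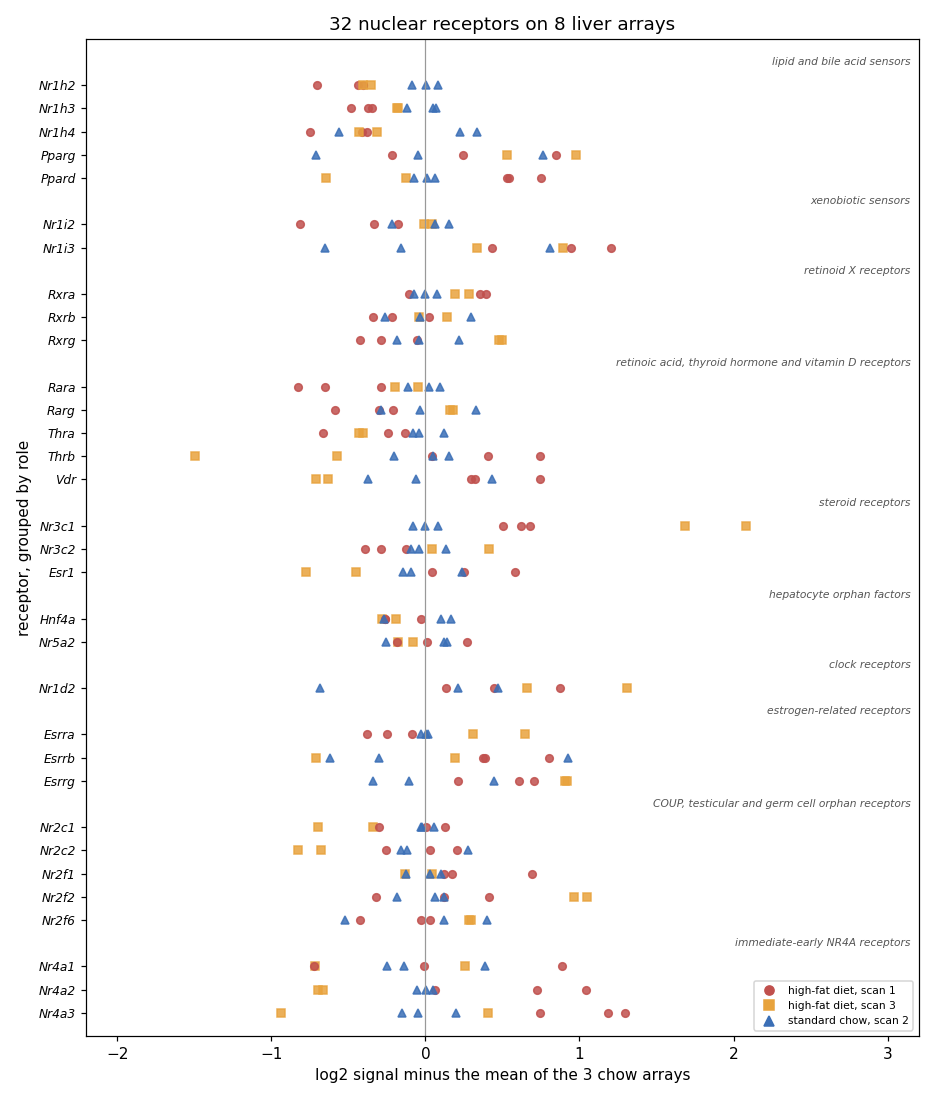
Each row is 1 of 32 receptors, grouped by role, and each point 1 array: log2 signal minus the mean of the 3 chow arrays (triangles), for high-fat arrays of scan 1 (circles) and scan 3 (squares). Nr1h2, Nr1h3 and Thra lie left of all chow arrays and Nr3c1 right of them, and the squares stand apart from the circles in rows such as Nr3c1, Nr2f2, Vdr and Nr4a2.

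Among the lipid and bile acid sensors, both liver X receptors were lower on every high-fat array than on every chow array. Nr1h2 (LXR beta), an oxysterol receptor made in most tissues, read 1.55, 1.46, 1.49, 1.49 and 1.19 in high-fat samples 1 to 5, in that order as for all receptors below, against 1.90, 1.81 and 1.98 in chow samples 1 to 3. The mean was 1.38-fold lower on high-fat diet, a log2 difference of −0.46 ± 0.14 (SE; 95% interval −0.78 to −0.15), with a limma adjusted p of 0.115. Every chow array lay above every high-fat array, and high-fat array 5 was the lowest. Nr1h3 (LXR alpha), the liver-rich member that drives cholesterol efflux and lipogenic genes, had 3.76, 3.59, 3.46, 3.76 and 3.57 on high-fat diet and 4.01, 3.82 and 3.99 on chow. Its log2 difference was −0.31 ± 0.14 (SE; 95% interval −0.63 to 0.003), a limma adjusted p of 0.251. By mean signal Nr1h3 lay in the brightest of 10 bins of features, where the median difference was −0.24. Nr1h2 lay in the next bin, with −0.14. The part of probe brightness in the LXR differences was not tested. The direction of Nr1h3 depended on the background model. With a normexp background its difference was 0.04 (0.33 relative to the median of all features, which that model moved to −0.29), and Nr1h2 was −0.29, or 0.003 relative to that median.

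Nr1h4 (FXR), the bile acid receptor that restrains bile acid synthesis, had a difference that depended on 1 chow array. On the brighter of its 2 probes it had 4.35, 4.26, 4.29, 4.24 and 3.92 on high-fat diet and 4.11, 4.89 and 5.01 on chow. Chow array 1 lay among the high-fat arrays, and the other 2 chow arrays lay above all of them. On both probes chow array 1 was the lowest chow array, and on the other probe it was the lowest of all arrays, at 0.28 against 1.68 and 1.82 on chow arrays 2 and 3. The high-fat arrays measured there, with array 4 left out as an outlier spot, ran from 1.15 to 1.52. The log2 difference was −0.46 ± 0.22 (SE, limma adjusted p = 0.297) on the brighter probe and −0.74 without chow array 1 (adjusted p = 0.113). The other probe gave 0.12 ± 0.37 (SE, adjusted p = 0.898). By its brighter probe Nr1h4 lay in the brightest of 10 bins of features, where the median difference was −0.24.

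The peroxisome proliferator receptors overlapped between diets. Pparg, best known as the master factor of fat cells and raised in many models of fatty liver, had 1.03, 0.90, −0.16, 0.58 and 0.30 on high-fat diet (mean 0.53 ± 0.48 SD, n = 5). On chow it had 0.81, 0.0005 and −0.66 (mean 0.05 ± 0.74 SD, n = 3), so both diets spread widely and overlapped. Its difference of 0.48 ± 0.37 (SE, limma adjusted p = 0.527) was 0.12 when chow array 3 was left out and 0.86 when chow array 1 was. Ppard, a broadly made fatty acid sensor, had a difference of 0.21 ± 0.31 (SE, limma adjusted p = 0.771), and its other probe gave −0.35 ± 0.35 (SE, adjusted p = 0.646). On chow Ppard was tight, from −3.40 to −3.26, while the high-fat arrays ran from −3.97 to −2.58 on both sides of it. The difference was 0.61 with the high-fat arrays of scan 1 alone (adjusted p = 0.037) and −0.39 with those of scan 3 alone (adjusted p = 0.267). In these fits 12.7% and 8.66% of all features passed. Ppara, the fasting-responsive member that drives fatty acid oxidation and not in the list of 36, had a difference of −0.39 ± 0.26 (SE, adjusted p = 0.449).

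The xenobiotic sensors switch on drug-metabolising enzymes. Nr1i3 (CAR), the phenobarbital-responsive receptor, had 1.08, 1.14, 1.39, 0.52 and 0.62 on high-fat diet and 0.03, −0.46 and 1.00 on chow. Its mean was 1.70-fold higher, a log2 difference of 0.76 ± 0.34 (SE; 95% interval −0.01 to 1.54, limma adjusted p = 0.256). Chow array 3 overlapped the high-fat arrays and chow array 2 was the lowest, and leaving these out moved the difference to 1.17 and 0.44. The other Nr1i3 probe gave 0.97 ± 0.47 (SE, adjusted p = 0.292), with chow array 2 again lowest. Nr1i2 (PXR), the receptor for drugs and steroids that induces Cyp3a enzymes, had a difference of −0.26 ± 0.22 (SE, adjusted p = 0.563).

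The retinoid X receptors, the shared partners of the receptors above, had differences within 0.25 of 0. Rxra, the main hepatic form, differed by 0.22 ± 0.16 (SE; 95% interval −0.13 to 0.58), Rxrb by −0.09 ± 0.18 and Rxrg by 0.04 ± 0.25 (limma adjusted p from 0.473 to 0.95). Their means on high-fat diet and chow were −2.13 ± 0.20 and −2.36 ± 0.07 for Rxra, −0.15 ± 0.19 and −0.06 ± 0.28 for Rxrb, and 2.48 ± 0.43 and 2.44 ± 0.20 for Rxrg (SD, n = 5 and n = 3).

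Of the 5 measured receptors for retinoic acid, thyroid hormone and vitamin D, 4 had negative differences. Thra, a thyroid hormone receptor, had −1.93, −2.16, −1.74, −1.90 and −1.63 on high-fat diet and −1.54, −1.58 and −1.38 on chow, without overlap. The difference was −0.38 ± 0.16 (SE; 95% interval −0.74 to −0.01), 1.30-fold lower, with a limma adjusted p of 0.234. It kept its sign under every alternative tried. Thrb, the form that dominates in hepatocytes, had −5.96, −4.43, −3.73, −5.04 and −4.06 on high-fat diet and −4.32, −4.42 and −4.67 on chow, so the high-fat arrays lay on both sides of chow (difference −0.17 ± 0.46 SE, adjusted p = 0.881). Rara, a retinoic acid receptor, had 2.09, 1.85, 1.32, 1.95 and 1.49 on high-fat diet and 2.23, 2.03 and 2.16 on chow. High-fat array 1 alone overlapped chow, and the difference was −0.40 ± 0.20 (SE, adjusted p = 0.309). Vdr, the vitamin D receptor, which in liver belongs mostly to non-parenchymal cells, had a difference of 0.004 ± 0.37 (SE, 95% interval −0.84 to 0.85).

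Rarg gave opposite readings on its 2 probes. The brighter probe, above background on all 8 arrays, had a difference of −0.15 ± 0.23 (SE, limma adjusted p = 0.772). The dim probe had −4.42, −4.69, −4.66, −4.40 and −4.79 on high-fat diet and −5.71, −6.29 and −5.50 on chow, where it was not well above background on any array. It met the filter through the high-fat arrays alone. Its adjusted p probe by probe, where 3.45% of 25627 probes passed, was 0.0163 in limma and is therefore not read as a diet difference. Its fold was 1.23 when chow was set to the lowest signals called above background there. Testing single probes was chosen after seeing the data.

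The glucocorticoid receptor Nr3c1 had the largest difference of the 32 receptors when each was read by its brightest probe. With averaged probes its difference was 0.81, below Nr1i3 (0.87) and Nr4a2 (0.86). The Nr4a2 average included a dim probe that met the filter through the high-fat arrays alone, and the brighter Nr4a2 probe gave 0.09. Nr3c1 carries the response of liver to cortisol-like hormones, including gluconeogenesis. It had 1.82, 0.82, 0.65, 2.22 and 0.76 on high-fat diet and 0.14, 0.06 and 0.22 on chow. All high-fat arrays lay above all chow arrays, and high-fat arrays 1 and 4, both of scan 3, lay far above the other 3. The mean was 2.17-fold higher, a log2 difference of 1.11 ± 0.38 (SE; 95% interval 0.25 to 1.98), with a limma adjusted p of 0.152. With the high-fat arrays of scan 1 alone the difference was 0.60 (adjusted p = 0.0339), and with those of scan 3 alone 1.88 (adjusted p = 0.0127); 12.7% and 8.66% of all features passed in these fits. The other Nr3c1 probe gave 0.50 ± 0.25 (SE, adjusted p = 0.302), with chow array 2 at −1.94 inside the high-fat range of −2.13 to −1.86. The 14 measured glucocorticoid targets did not include one that passed. Their median difference was −0.14, with 6 positive and 8 negative. Their summed signal ran from 272 to 331 on high-fat diet and from 352 to 489 on chow, without overlap. Of the 14, 9 lay in the brightest of 10 bins of features, where the median difference was −0.24. Among the 14 targets the cochaperone gene Fkbp5 ran from −0.62 to 0.03 on high-fat diet and from −0.72 to −0.68 on chow, with high-fat arrays 1 and 4 highest (difference 0.35 ± 0.20 SE, adjusted p = 0.381). Tat, tyrosine aminotransferase, had a difference of −0.61 ± 0.29 (SE, adjusted p = 0.278).

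The other steroid receptors had differences near 0 on their brightest probes. Nr3c2, the mineralocorticoid receptor, had a difference of −0.07 ± 0.20 on 1 probe and 0.22 ± 0.32 on the other (SE, limma adjusted p = 0.889 and 0.755). Esr1, the estrogen receptor alpha, read by 10 spots on each array, averaged −4.01 ± 0.54 (SD, n = 5) and −3.94 ± 0.21 (SD, n = 3), a difference of −0.07 ± 0.30 (SE, adjusted p = 0.927).

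**Figure D2:**
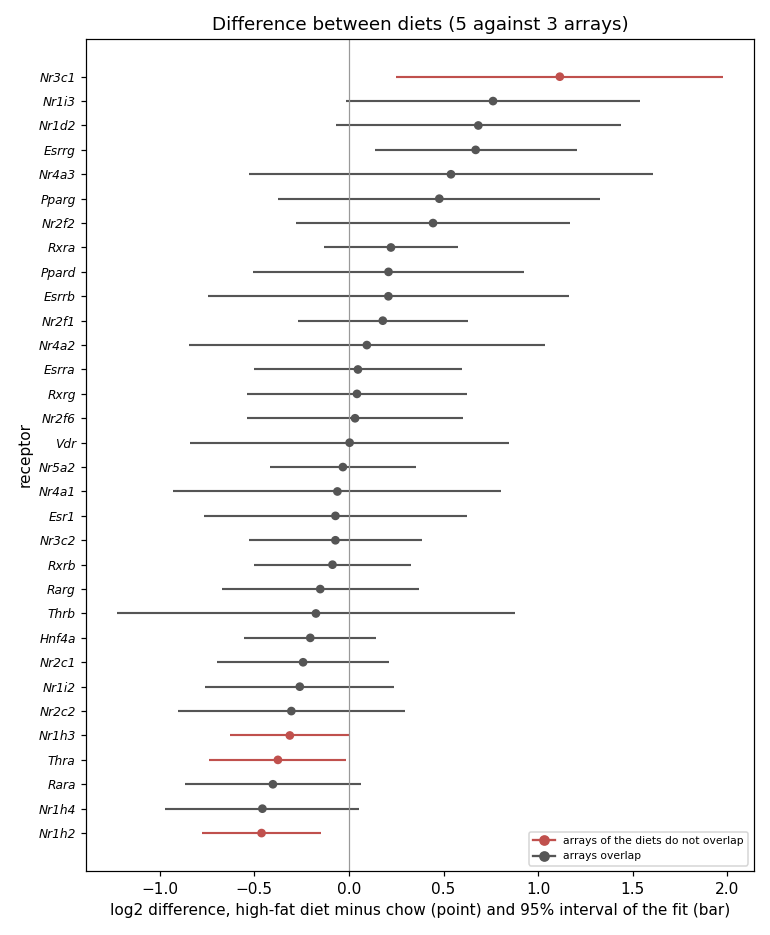
Points are log2 differences, high-fat diet minus chow, for 32 receptors, and bars the 95% intervals of the fit; red marks the 4 receptors whose arrays do not overlap between diets. The differences run from −0.46 (Nr1h2) to 1.11 (Nr3c1), and no receptor passes after adjustment over all features.

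Neither hepatocyte factor passed. Hnf4a, which holds hepatocytes in their differentiated state, had −0.29, −0.13, −0.36, −0.38 and −0.36 on high-fat diet and 0.07, −0.37 and 0.001 on chow. Chow array 2 lay inside the high-fat range and the other 2 chow arrays above it. The difference was −0.20 ± 0.15 (SE; 95% interval −0.55 to 0.14, limma adjusted p = 0.505). Nr5a2 (LRH-1), which acts on bile acid synthesis genes, had −0.03 ± 0.17 and, on its other probe, −0.30 ± 0.24 (SE, adjusted p = 0.944 and 0.539).

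The clock receptor Nr1d2 represses transcription in the daily cycle. It had −3.30, −3.83, −3.52, −2.65 and −3.09 on high-fat diet and −3.75, −3.49 and −4.65 on chow, where array 3 was not above background. The difference was 0.68 ± 0.33 (SE; 95% interval −0.07 to 1.44, limma adjusted p = 0.29), or 0.34 when chow array 3 was left out, and a normexp background gave −0.21, or 0.079 relative to the median of all features. Of 13 measured clock genes 0 passed, with a median difference of −0.03. Nr1d1, the paralog of Nr1d2, had −0.20 ± 0.26 (SE, adjusted p = 0.731). The labels do not give the hour at which tissue was taken.

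The estrogen-related receptors drive genes of mitochondrial energy use without a known natural ligand. Esrra had 1.77, 1.21, 1.08, 2.11 and 1.38 on high-fat diet against 1.48, 1.44 and 1.47 on chow, so the chow arrays sat inside the high-fat range (difference 0.05 ± 0.24 SE, limma adjusted p = 0.941). Esrrg had −4.64, −4.95, −5.35, −4.65 and −4.85 against −5.90, −5.66 and −5.12 on chow (difference 0.67 ± 0.23 SE, adjusted p = 0.162). Its chow values were not well above background, and the fold was 1.00 against the lowest signals above background there. Esrrg met the filter through the high-fat arrays alone, so its adjusted p is not read as a test of a diet difference. With a normexp background the difference of Esrrg was −0.45, or −0.16 relative to the median of all features. Esrrb had a difference of 0.21 ± 0.42 (SE, adjusted p = 0.838).

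Among the orphan receptors without an established hormone, Nr2f2 (COUP-TFII), known for vein and mesenchymal identity, had −0.73, −1.66, −1.37, −0.81 and −2.10 on high-fat diet and −1.65, −1.96 and −1.71 on chow. High-fat arrays 1 and 4 were the highest of all 8, array 3 was also above all chow arrays, and arrays 2 and 5 were level with or below chow. The difference was 0.44 ± 0.32 (SE, limma adjusted p = 0.481), 1.01 with the high-fat arrays of scan 3 alone (adjusted p = 0.0307) and 0.07 with those of scan 1 alone (adjusted p = 0.845). Of all features 8.66% passed with scan 3 alone and 12.7% with scan 1 alone. Nr2f1 and Nr2f6, of the same family as Nr2f2, had 0.18 ± 0.20 and 0.03 ± 0.25 (SE). Nr2c1 and Nr2c2, the testicular receptors, had −0.24 ± 0.20 and −0.30 ± 0.26 (SE). The adjusted p of these 4 ran from 0.554 to 0.962. The second probes of Nr2c2 and Nr2f6 gave −0.16 ± 0.31 and −0.17 ± 0.23 (SE).

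The NR4A receptors are immediate-early genes, raised within minutes to hours by stress, hormones and cyclic AMP. All 3 varied widely among the high-fat arrays. Nr4a1 had 1.51, 1.25, 2.14, 0.54 and 0.53 on high-fat diet and 1.11, 1.01 and 1.64 on chow. Nr4a2 had −3.01, −2.26, −1.27, −2.98 and −1.59 against −2.37, −2.31 and −2.27. Nr4a3 had −4.89, −4.55, −4.01, −6.23 and −4.12 against −5.45, −5.35 and −5.10, the chow values not well above background. High-fat array 3 was the highest of the 8 arrays for each of them. That was not particular to this family: the same array was highest for Ppard (−2.58), Thrb (−3.73), Vdr (−3.47) and Esr1 (−3.36), among others. It had 92.8% of probes above background, the largest share of any array. Chow arrays sat inside the high-fat range in all 3 NR4A receptors, with a chow SD of 0.05 for Nr4a2 against 0.79 on high-fat diet. Ppard (0.07 against 0.58) and Esrra (0.02 against 0.42) also had a small chow SD. The differences were −0.06 ± 0.38, 0.09 ± 0.41 and 0.54 ± 0.47 (SE), with limma adjusted p of 0.953, 0.929 and 0.577. With the high-fat arrays of scan 1 alone and of scan 3 alone, Nr4a2 had 0.61 and −0.68 (adjusted p = 0.146 and 0.0498) and Nr4a3 had 1.08 and −0.26 (adjusted p = 0.0174 and 0.698). In these fits 12.7% and 8.66% of all features passed. Nr4a3 met the filter through the high-fat arrays alone. The second, dimmer Nr4a2 probe was detected in 5 of 5 high-fat samples and in 0 of 3 chow samples (means −5.17 and −6.80). It also met the filter through the high-fat arrays alone, so its limma adjusted p of 0.0392 is not read as a change. No fold is given for it, since the lowest signals above background on chow averaged −4.89. Of 17 other immediate-early genes measured 0 passed, with a median difference of −0.07. Egr1, an early growth response factor, had −1.23 ± 0.37 (SE, adjusted p = 0.111) and Fos −0.07 ± 0.26 (SE, adjusted p = 0.918).

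**Figure D3:**
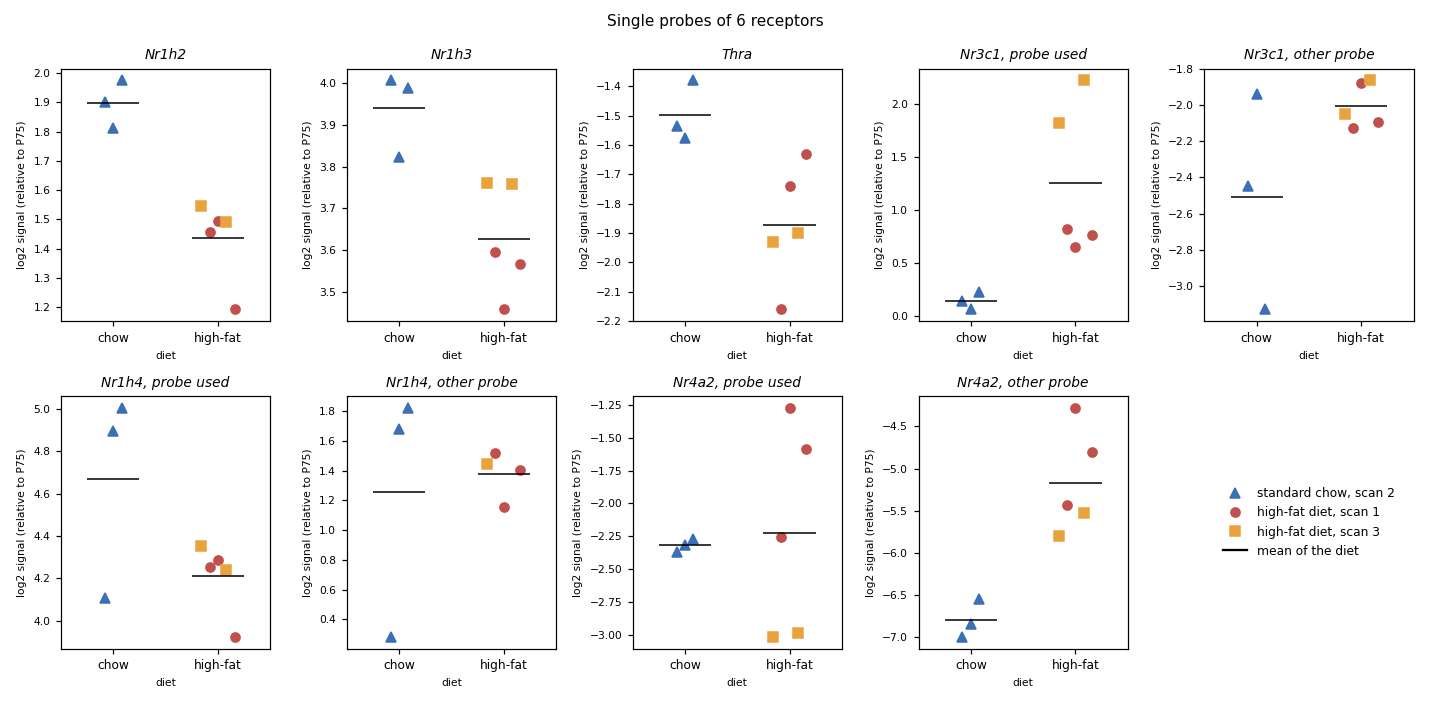
Log2 signal by diet for single probes of 6 receptors, 1 point for each array, with bars at the mean of each diet; triangles are chow, circles high-fat arrays of scan 1 and squares high-fat arrays of scan 3. Nr1h2, Nr1h3 and Thra do not overlap between diets, the 2 Nr3c1 probes differ in overlap, chow array 1 is the lowest chow point for both Nr1h4 probes, and Nr4a2 spans −3.01 to −1.27 on high-fat diet.

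In 10 receptors a second probe gave a check on the same arrays. The 2 probes had the same sign of difference in 5 of them (Nr1i3, Nr3c1, Nr5a2, Nr2c2 and Nr4a2) and opposite signs in 5 (Nr1h4, Ppard, Rarg, Nr3c2 and Nr2f6). The dim probes of Nr4a2 and Rarg met the filter through the high-fat arrays alone, so their signs are a weak check. The 4 receptors without overlap between diets were read by 1 probe, apart from Nr3c1.

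Differences between the 2 scans of high-fat arrays were larger than differences between diets for most receptors, and over all features the median size was 0.40 between scans and 0.28 between diets. This comparison was added after seeing the data, in a limma fit of all 8 arrays with 1 mean for each scan. Between scan 3 (arrays 1 and 4) and scan 1 (arrays 2, 3 and 5), 11 of 32 receptors (34.4%) passed an adjusted p of 0.05, 4 higher and 7 lower on scan 3. Of all features 26.2% passed (5.64% higher and 20.6% lower), so the receptors' share was not far from the background. The size of the scan difference exceeded that of the diet difference in 22 of 32. The 4 higher on scan 3 were Nr3c1 (2.43-fold, adjusted p = 0.0028), Nr2f2 (1.92-fold, 0.0196), Rxrg (1.67-fold, 0.0196) and Esrra (1.64-fold, 0.016). The 7 lower on scan 3 were Thrb (2.70-fold, 0.0133), Nr4a3 (2.53-fold, 0.0325), Nr4a2 (2.45-fold, 0.0113), Vdr (2.18-fold, 0.0157), Ppard (1.99-fold, 0.00799), Esr1 (1.87-fold, 0.0193) and Nr2c2 (1.67-fold, 0.0297). Thrb and Nr4a3 were each not above background on 1 of the 2 scan 3 arrays, so their folds rest in part on such values. Nr1h2, Nr1h3, Thra, Hnf4a and Rxra differed by at most 0.22 on the log2 scale between these scans (adjusted p from 0.283 to 0.946). With a normexp background 1 of 32 receptors passed, Nr3c1 (1.27 on the log2 scale, adjusted p = 0.0448), where 1.09% of all features did. Without high-fat array 1 or 4, which leaves scan 3 with a single array taken to vary like the others, 4 and 3 receptors passed.

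Probe brightness moved with both comparisons. In 10 bins of equal size, the median difference between diets was 0.51 for the dimmest features and −0.24 for the brightest, and the median difference between scans −0.86 and 0.23. All 7 receptors lower on scan 3 had a mean signal under −2, and 0 of the 4 higher ones did. The scan 3 arrays had a 75th percentile of 725 and 732 intensity units, against 873 to 1045 on scan 1. The part of brightness in these differences was not tested.

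**Figure D4:**
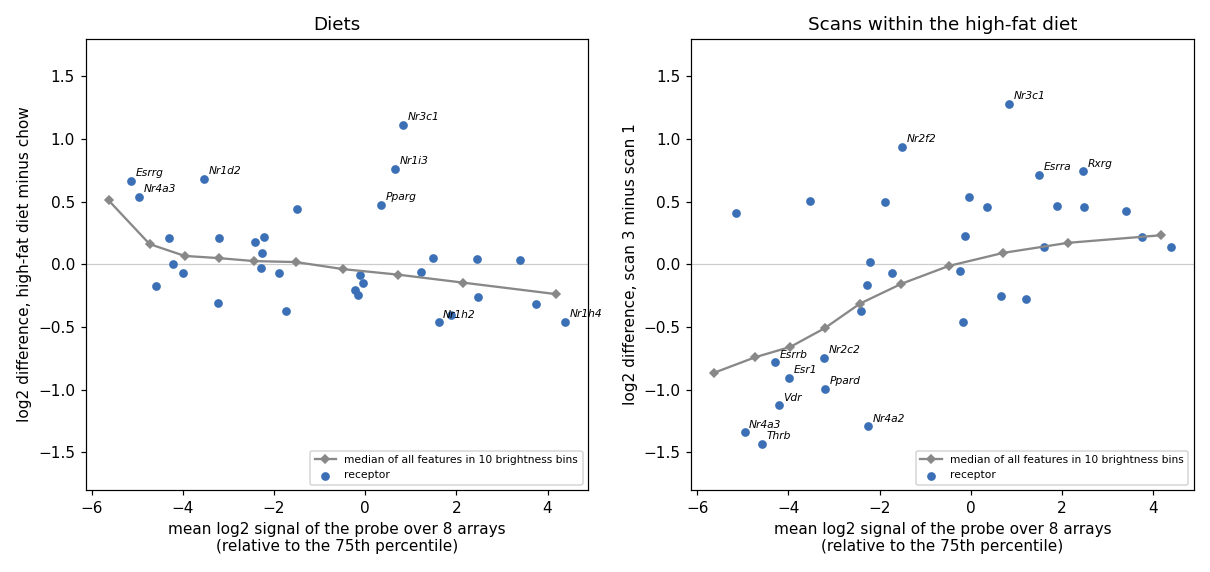
Each blue point is 1 of 32 receptors, placed by the mean log2 signal of its probe (horizontal axis) and by its log2 difference between diets (left) or between scans within the high-fat diet (right); the grey line joins medians of all features in 10 brightness bins. The grey medians fall from 0.51 to −0.24 on the left and rise from −0.86 to 0.23 on the right, and Nr3c1 lies above them in both panels at 1.11 and 1.28.

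Other receptors, cofactors and target genes were counted in the same fit between diets. Of 6 further nuclear receptors measured, 0 passed, with 1 positive and 5 negative differences. Nr0b2 (SHP), the corepressor-like receptor induced by FXR, ran from 1.82 to 3.56 on high-fat diet and from 3.18 to 4.37 on chow, with a difference of −0.93 ± 0.43 (SE, limma adjusted p = 0.264). Of 9 coactivators and 7 corepressors measured, 0 passed, with medians of 0.21 and 0.03. Ppargc1a, a coactivator of fasting and mitochondrial genes, was not above background on any array, and Ncor1 and Ncoa1 were not matched.

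Target genes gave 1 call, in a fit where 3.56% of all features passed. Me1, malic enzyme, a thyroid hormone target that makes NADPH for fat synthesis, was the 1 of 8 measured thyroid hormone targets that passed, and it was lower (difference −1.05 ± 0.20 SE, limma adjusted p = 0.0281, and 0.0625 with a normexp background); 6 of the 8 had positive differences and the median was 0.27. No gene passed among 11 LXR targets (median −0.17), 10 FXR targets (−0.27), 14 PXR and CAR targets (−0.18), 15 HNF4A targets (−0.35), 9 retinoic acid targets (−0.04) or 4 vitamin D targets (0.02), against a median of −0.01 over all features. Negative differences numbered 9 of 10 for FXR targets, 11 of 14 for PXR and CAR targets and 11 of 15 for HNF4A targets. Of all members of these 3 lists, 7, 10 and 12 genes lay in the brightest bin, whose median was −0.24. Cyp3a23-3a1, the classic PXR-induced enzyme, had −0.48 ± 0.22 (SE, adjusted p = 0.257) and Cyp2b2, induced through CAR, −0.11 ± 0.25 (SE, adjusted p = 0.852). Abcb1a, a drug efflux pump of the same list, had the largest difference there, 1.20 ± 0.43 (SE, adjusted p = 0.17), or 0.046 with a normexp background. Cyp8b1, an HNF4A target of bile acid synthesis, had −0.59 ± 0.21 (SE, adjusted p = 0.166). Abca1 and Abcg1, cholesterol exporters driven by LXR, had 0.19 ± 0.23 and −0.05 ± 0.18 (SE, adjusted p = 0.722 and 0.917).

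No marker of another cell type passed in any list, and the sums of most lists overlapped between diets. The summed signal of 5 measured sinusoidal endothelial markers, relative to the 75th percentile, ran from 39.4 to 45.2 on high-fat diet and from 46.4 to 48.4 on chow, without overlap. Of these 5 markers, 2 lay in the brightest bin of features, where the median difference was −0.24, and the median of the 5 was −0.14. The sum of 8 stellate cell markers ran from 13.9 to 20.1 against 18.2 to 33.1, and that of 7 Kupffer cell markers from 21.4 to 30.7 against 26.8 to 37.5. The sum of 8 hepatocyte markers ran from 473 to 563 against 511 to 801. Of 5 cholangiocyte, 4 lymphocyte and 3 adipocyte markers, 2, 2 and 2 were above background on all arrays. The sums of these lists were 0.48 to 0.81 against 0.60 to 0.92, 0.64 to 0.99 against 0.80 to 1.12, and 4.07 to 4.38 against 4.68 to 5.65, the last without overlap. Their part in the receptor differences was not tested.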

How the data were processed

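The samples are 8 single-colour arrays, 5 of high-fat diet and 3 of standard chow, grouped by their titles. Scanner files were made with Agilent Feature Extraction 11.0.1.1, per the submitters' processing notes. Per the file headers, the deposited processed signal is an intensity with background subtracted and no scaling between arrays, and the deposited median signal and local background are raw intensities. The deposited value table of the authors is on a log2 scale, with no centring of genes. All 8 columns have the same 75th percentile and nearly the same median (6.423 to 6.424). The method behind this table is not given in the sources used here.

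Between 331 and 550 outlier spots per array were dropped, 0 spots were saturated, and no 2 arrays were identical. Replicate spots were averaged on the log2 scale and centred on the 75th percentile of their array. The filter kept probes with a share of 0.5 or more of spots well above background in 3 or more arrays, and a gene was read by its brightest such probe. Of 30367 probes, 18005 were named through RefSeq accessions of the GRCr8 assembly. Of 22873 features kept, 22871 could be fitted (lmFit and eBayes of limma 3.58.1, R 4.3.3, two-sided, Benjamini-Hochberg adjustment, threshold 0.05). Sums of marker lists add linear signals relative to the 75th percentile.

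A fold against the lowest signals above background sets the high-fat mean against the mean, over the chow arrays, of the higher of the probe's own value and the dimmest signal called above background there. It is not a strict lower bound, since a probe can be called not above background at a higher signal, as Esrrb was on chow. The method was tested on simulated data. Replicate numbers did not pair samples by the labels. The 36 receptors, their roles and the gene lists were chosen with earlier results of these data known. All receptors were named whatever their p, with up to 3 genes of each list that passed, plus Ppara, Nr0b2, Ncor1, Ncoa1 and Ppargc1a; other list genes were named after their values were seen. The values of 1 list gene are not reported here. Alternatives changed the background, scaling, filter, probes, arrays and blocks.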

Additional observations from a re-analysis of the deposited data

Results flagged for a closer look

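Among the 5 high-fat arrays, 1 array lay apart from the other 4 in 2 of 32 receptors, by a gap of more than 0.71 of the group's range; chance gives about 1 in 20 such groups. For Nr1h2, high-fat array 5 was at 1.19, and the other 4 ran from 1.46 to 1.55. For Nr1h4, high-fat array 5 was at 3.92, and the other 4 ran from 4.24 to 4.35. Both are the lowest values of these receptors on any array. Without this array the difference between diets was −0.40 for Nr1h2 (limma adjusted p = 0.203) and −0.39 for Nr1h4 (adjusted p = 0.446).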

How the results depend on the processing

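No receptor passed between diets with a normexp background, quantile normalization, no filter, a filter on all 8 arrays, averaged probes, scan as a random block, the authors' table or a replicate block, nor with any 1 array left out (0 to 0). With scan day 1 only, 3 passed (Ppard, Nr3c1 and Nr4a3, the last with no chow array above background), with the high-fat arrays of scan day 2 only, 3 (Nr3c1, Nr2f2 and Nr4a2), and with every probe tested on its own, 2 (Rarg and Nr4a2). Both of these probes met the filter through the high-fat arrays alone, so the 2 calls are not read as diet differences. Of all features 12.7% passed with scan day 1 only and 8.66% with the high-fat arrays of scan day 2 only. Of all probes tested on their own 3.45% passed. The median of the receptors, −0.01, was −0.21 with normexp, −0.13 with the high-fat arrays of scan day 2 only and −0.100 to 0.091 with 1 array left out (0.091 without chow array 3), and moved by less than the spread between arrays in the other settings. Over all features 815 passed, against 149 with normexp, 486 with the filter on all arrays, 84 with scan as a random block, 2902 and 1979 with 1 scan day of high-fat arrays (day 1 and day 2), and 374 to 789 with 1 array left out. This number was 374, 440 and 432 without chow arrays 1, 2 and 3 and 455 without high-fat array 2. Higher and lower calls numbered 703 and 112, against 798 and 294 after quantile normalization, 830 and 310 in the authors' table, 699 and 396 with no filter, 355 and 131 with the filter on all arrays, and 998 and 981 with scan day 2 only. The replicate block left 4 features and 0 receptors. The deviations of same-numbered samples correlated at 0.05, 0.03 and 0.07, too weakly to treat the numbers as pairs. Between the scans of high-fat arrays, 5991 features and 11 receptors passed, against 250 and 1 with normexp, 3385 and 5 after quantile normalization, 3407 and 6 in the authors' table, and 2335 to 6394 and 3 to 12 with 1 array left out; without high-fat arrays 1, 3, 4 and 5 there were 4, 7, 3 and 7 receptors.

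Of 32 receptors, 11 kept their sign in every setting in which they were fitted: Hnf4a, Nr1h2, Nr1h4, Nr1i3, Nr2c1, Nr2c2, Nr2f2, Nr3c1, Pparg, Rara and Thra. Relative to the median of all features, Hnf4a (0.048), Nr1h2 (0.0033) and Nr2c1 (0.040) turned with normexp. So did Nr2f2 with scan day 1 only (−0.017) and Rara with the high-fat arrays of scan day 2 only (0.011). The sign turned, on the log2 scale, with normexp for Nr1h3 (0.041), Ppard (−0.13), Rxra (−0.021), Rarg (0.03), Vdr (−0.57), Nr1d2 (−0.21), Esrrb (−0.76), Esrrg (−0.45), Nr2f1 (−0.21), Nr4a1 (0.10), Nr4a2 (−0.19), Nr4a3 (−0.49), where the median of all features moved to −0.29 and Ppard, Rxra, Nr1d2, Nr2f1 and Nr4a2 kept their sign relative to it (0.16, 0.27, 0.079, 0.081 and 0.10); with scan day 1 only for Rxrg (−0.25), Thrb (0.40), Esr1 (0.29), Nr5a2 (0.034), Esrra (−0.24), Nr2f6 (−0.14), Nr4a1 (0.051); with the high-fat arrays of scan day 2 only for Ppard (−0.39), Nr1i2 (0.017), Rxrb (0.049), Rarg (0.17), Vdr (−0.67), Nr3c2 (0.23), Esrrb (−0.26), Nr2f1 (−0.045), Nr4a2 (−0.68), Nr4a3 (−0.26). It turned with averaged probes for Ppard (−0.068), Rarg (0.54, including the dim probe that met the filter through the high-fat arrays alone), Nr3c2 (0.076), Nr2f6 (−0.069). The replicate block turned it for Nr5a2 (0.068), Esrra (−0.11), Nr2f6 (−0.055), Nr4a1 (0.38), and scan as a random block for Vdr (−0.071). Quantile normalization turned it for Vdr (−0.086), Nr4a1 (0.012), and the authors' table for Vdr (−0.079), Nr4a1 (0.0073). With 1 array left out the range crossed 0 for Rxrb (−0.22 to 0.063), Rxrg (−0.071 to 0.16), Rarg (−0.30 to 0.012), Thrb (−0.40 to 0.16), Vdr (−0.18 to 0.22), Nr3c2 (−0.19 to 0.0095), Esr1 (−0.23 to 0.11), Nr5a2 (−0.16 to 0.038), Esrra (−0.10 to 0.15), Esrrb (−0.10 to 0.67), Nr2f6 (−0.23 to 0.23), Nr4a1 (−0.30 to 0.13), Nr4a2 (−0.14 to 0.29). The cause was not tested. Signal over background limits what can be seen: the 5 dim receptors dropped out when all 8 arrays had to be above background.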
